A study of Mus musculus with 9 samples.

Results

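The tumor necrosis factor (TNF) superfamily is a family of mostly membrane-bound ligands and of cell-surface receptors with cysteine-rich extracellular repeats. Its members were taken as all array probes named for a Tnfsf or Tnfrsf gene, or for Tnf, Lta, Ltb, Fas, Fasl, Cd40, Cd40lg, Cd27, Cd70, Ltbr, Ngfr or Eda, and the probes of a gene were combined by their median. This gave 42 genes from 54 probes, of 34797 named genes on the array. They comprised 17 ligands, 6 receptors with an intracellular death domain, 4 decoy or soluble receptors and 15 receptors without a death domain. Of the 54 probes, 53 had an accession found in RefSeq, in each case under the same symbol.

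RNA came from Gr-1bright neutrophils sorted from female FVB/N mice whose back skin had received the carcinogen DMBA when the mice were 6 and again 13 weeks old, with the tumor promoter PMA applied repeatedly between week 1 and week 18 to 20. The 4 groups were skin surrounding papillomas (papilloma skin, 2 arrays), skin surrounding tumors (tumor skin, 2 arrays), papillomas (3 arrays) and tumors (2 arrays), so that the skin groups had received both agents too and there was no untreated skin. Each array held RNA of several mice, and the sort reached a purity of over 98% per the labels. Papillomas and tumors were dissociated with collagenase, dispase and DNase and skin with collagenase alone, so that dissociation and tissue cannot be told apart in any comparison of lesions with skin. Levels are the log2 values of the table that the authors deposited. Since probes differ in brightness for reasons other than abundance, levels were compared between groups for 1 gene and never between genes. The summed levels of marker lists given below are an exception. They add the linear values of different genes, so that the brightest probes dominate and a sum may reflect few genes.

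Signaling through this family begins when a trimeric ligand gathers its receptors. Death domain receptors such as Fas and the TRAIL receptor can recruit FADD and caspase-8 and start apoptosis, whereas most others recruit TRAF adaptors and activate NF-kappaB. Decoy receptors bind ligand without passing on a death signal, and soluble forms released by proteases such as ADAM17 have a similar effect. In neutrophils TNF is a classical priming agent, and TRAIL and FAS ligand are known to influence how long these cells live.

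The changes that stood out were in Tnfrsf22 and Tnfrsf23, known in the mouse as decoy receptors for TRAIL, and in the related receptor Tnfrsf26. The probes behind these genes are shown because the genes are related and lie side by side, so that 1 probe reading another gene's transcript would be a concern. All 5 probes have 60 bases and lie on the minus strand of chromosome 7 in mm9, the build of the array annotation, and the first 30 bases of each follow, 5′ to 3′. Tnfrsf26 was read at chr7:150793990-150794049, Tnfrsf22 at chr7:150823394-150823453 (probe A) and chr7:150826673-150826732 (probe B), and Tnfrsf23 at chr7:150851714-150851773 (probe A) and chr7:150865851-150865910 (probe B).
Tnfrsf26: ccaacactatagaactattcacttgataaa
Tnfrsf22 probe A: cctgaatcagtctgtaggtcatgtttaatc
Tnfrsf22 probe B: accggaaatgccagtgccgaacaggtcttt
Tnfrsf23 probe A: cctgggtcagtgaactcaactgagagcaat
Tnfrsf23 probe B: acattcacagggaaagataatggcctgcat
Over the full 60 bases, the 8 pairs of probes from different genes shared no run longer than 8 identical bases. At the offset that aligned them best, 18 to 23 bases were identical. Probes were compared with each other only, not with the transcripts of the other genes. Whether a probe reads another gene's transcript was therefore not tested. The array annotation used here gives positions but does not say in which exon or untranslated region a probe lies.

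The arrays were of uneven quality, which bears on every result. The scanner software's slope for the spike-in controls, their signal against their known amount, was 0.678 for papilloma skin 1, 0.876 for tumor skin 1 and 0.894 for tumor 1, against 1.04 to 1.06 for the other 6 arrays. In the deposited table the columns papilloma skin 1 and tumor 1 followed the probe ranks of tumor 2's scanner file better than their own (Spearman's rho to their own files 0.588 and 0.827). After gene means were removed, papilloma skin 1 was closest to another skin array (r across genes 0.43 with papilloma skin 2 after ComBat, 0.27 with tumor skin 2 without it), and tumor 1 remained closest to tumor 2. For papilloma 2 and papilloma 3, the best match was the file of the other array. Whether the table's columns or the labels of the files are right was not settled. Of the 42 genes, 30 were well above background on all 9 arrays and 32 had a mean log2 value of at least 6. On those 6 arrays, Cd40lg, Cd70, Tnfsf4, Tnfsf11 and Tnfsf18 never rose well above background. The neutrophil transcripts S100a8, S100a9 and Csf3r lay at 17.88 to 18.22, 18.45 to 18.63 and 16.68 to 16.89 over all arrays. However, 6 of the 12 neutrophil markers were called lower in tumor and 4 in papilloma than in their skin, against 1.61% and 1.17% of all genes.

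Group means were compared with limma over all 34797 genes with Benjamini-Hochberg adjustment. A gene was called when its adjusted p was at most 0.05, its log2 fold change at least 1 in either direction and its mean log2 value at least 6. In tumor versus tumor skin, 4 members were called higher (Tnfrsf12a, Tnfrsf22, Tnfrsf23 and Tnfrsf26) and 1 lower (Tnfrsf18), against 2.75% of all genes called higher and 1.61% called lower. In papilloma versus papilloma skin, 5 members were called higher (Tnf, Tnfrsf9, Tnfrsf22, Tnfrsf23 and Tnfrsf26) and 0 lower, against 2.43% and 1.17% of all genes. The median log2 fold change over the 42 genes was 0.01 for tumor and -0.05 for papilloma against their skin, beside -0.01 in both over all genes. Of the 42, 21 had a positive change in the first comparison and 18 in the second.

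**Figure D1:**
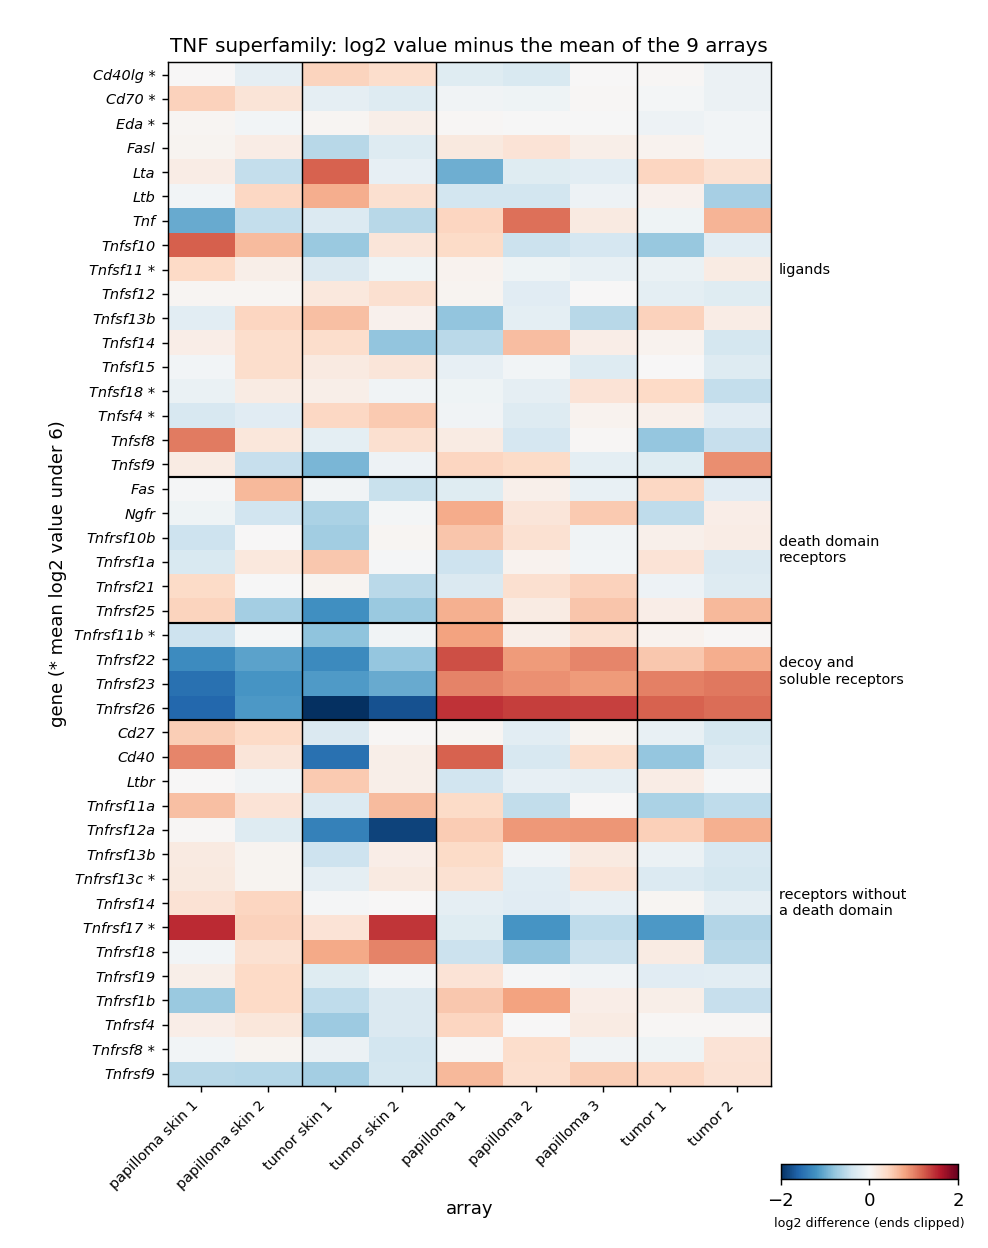
Log2 value of each member minus its mean over the 9 arrays (color scale, clipped at -2 and 2), with genes in rows grouped by role and arrays in columns grouped by tissue. Tnfrsf22, Tnfrsf23 and Tnfrsf26 are blue in all 4 skin columns and red in all 5 lesion columns, whereas the rows of Tnfrsf1a, Fas and Tnfsf14 show overlapping groups.

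Among the decoy and soluble receptors, 3 of 4 were called higher in both lesion comparisons, against 2.75% of all genes in tumor and 2.43% in papilloma. The median log2 fold change of the 4 genes was 1.88 for tumor and 2.23 for papilloma, beside -0.01 over all genes. Tnfrsf26 lay at 8.00 and 8.42 in papilloma skin and at 7.54 and 7.83 in tumor skin, against 11.02, 10.95 and 10.93 in papilloma and 10.75 and 10.69 in tumor. Every lesion array was higher than every skin array by over 2 log2 units. Tumor exceeded tumor skin by 3.04 log2 units (SE 0.174, adjusted p = 0.000305, limma), or 8.22-fold. Papilloma exceeded papilloma skin by 2.76 (SE 0.159, adjusted p = 0.000144, limma), or 6.76-fold. Among the 18817 genes with a mean log2 value of at least 6, these increases ranked 48 and 47 from the top.

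Tnfrsf23, which can bind TRAIL without a death domain, lay at 8.95 and 9.26 in papilloma skin and at 9.31 and 9.44 in tumor skin. Its values were 11.43, 11.36 and 11.30 in papilloma and 11.46 and 11.50 in tumor, so that the gap between the lesions and the skin was far wider than the spread within any group. The increase over the surrounding skin was 2.11 log2 units in tumor (SE 0.148, adjusted p = 0.000574, limma) and 2.26 in papilloma (SE 0.135, adjusted p = 0.000168, limma). Its probes rose separately, probe A by 2.37 and probe B by 1.84 log2 units in tumor, with limma adjusted p of 0.000628 and 0.000815 over all probes.

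Tnfrsf22, the other TRAIL decoy, lay at 7.24 and 7.43 in papilloma skin and at 7.22 and 7.72 in tumor skin. In papilloma it was at 9.78, 9.36 and 9.47 and in tumor at 9.03 and 9.23, again with no overlap between lesions and skin. On the log2 scale it rose by 1.66 in tumor (SE 0.214, adjusted p = 0.00442, limma) and by 2.20 in papilloma (SE 0.196, adjusted p = 0.000720, limma), each against its skin. Probe A rose by 2.03 and probe B by 1.29 in tumor versus tumor skin (limma, adjusted p = 0.0134 and 0.00223). The secreted receptor Tnfrsf11b, osteoprotegerin, which binds TRAIL and RANK ligand, was low, with a mean log2 value of 5.96, and was not called in either comparison. It was not well above background on either papilloma skin array, and its change in tumor was 0.49.

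**Figure D2:**
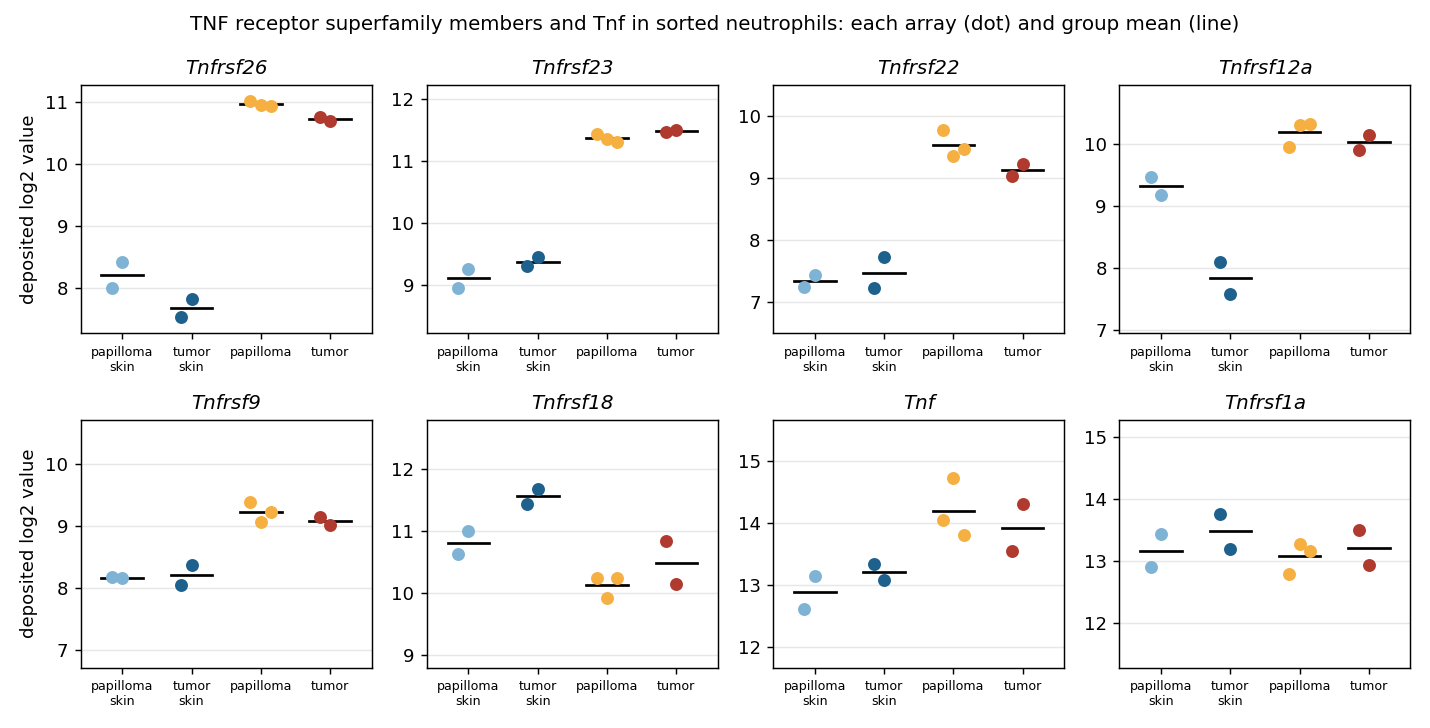
Deposited log2 value (y axis) of 8 members on each array (dots) by tissue (x axis), with the group mean as a line. Tnfrsf26, Tnfrsf23 and Tnfrsf22 separate lesions from skin at both stages, Tnfrsf12a is lowest in tumor skin in these values, and Tnfrsf1a, which was not called, overlaps between groups.

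In the scanner files, where each array is identified by the label of its own file, lesion arrays also lay above skin arrays for all 3 receptors. After quantile normalization and no correction for slides, Tnfrsf26 was at 3.56 to 8.72 in the 4 skin arrays and at 9.96 to 11.16 in the 5 lesion arrays. The corresponding ranges were 8.82 to 9.48 and 10.86 to 11.60 for Tnfrsf23, and 5.98 to 7.74 and 8.82 to 9.81 for Tnfrsf22. The lowest values of Tnfrsf26 and Tnfrsf22 were those of papilloma skin 1, the array with the most compressed signal, and without it the skin values of Tnfrsf26 began at 6.80. In these values 5 of the 42 members had all lesion arrays above all skin arrays (Tnf, Tnfrsf12a, Tnfrsf22, Tnfrsf23 and Tnfrsf26), against 3.87% of all genes. Only Ltb, the membrane subunit of lymphotoxin, had all lesion arrays below all skin arrays, against 1.37% of all genes. None of the 42 was called by limma in these values, where 0 genes of the whole array were called in either comparison of a lesion with its skin. With quantile normalization and ComBat, which adjusts for slides, the tumor changes were 2.60, 1.75 and 1.60 for Tnfrsf26, Tnfrsf23 and Tnfrsf22 with adjusted p of 0.167, 0.0392 and 0.109, and the papilloma changes of 4.71, 2.20 and 2.82 were all called. Over all genes this setting raised the papilloma calls from 1251 to 2768. On simulated data, ComBat with groups kept in the model made limma call too many unchanged genes, which limits these calls.

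**Figure D3:**
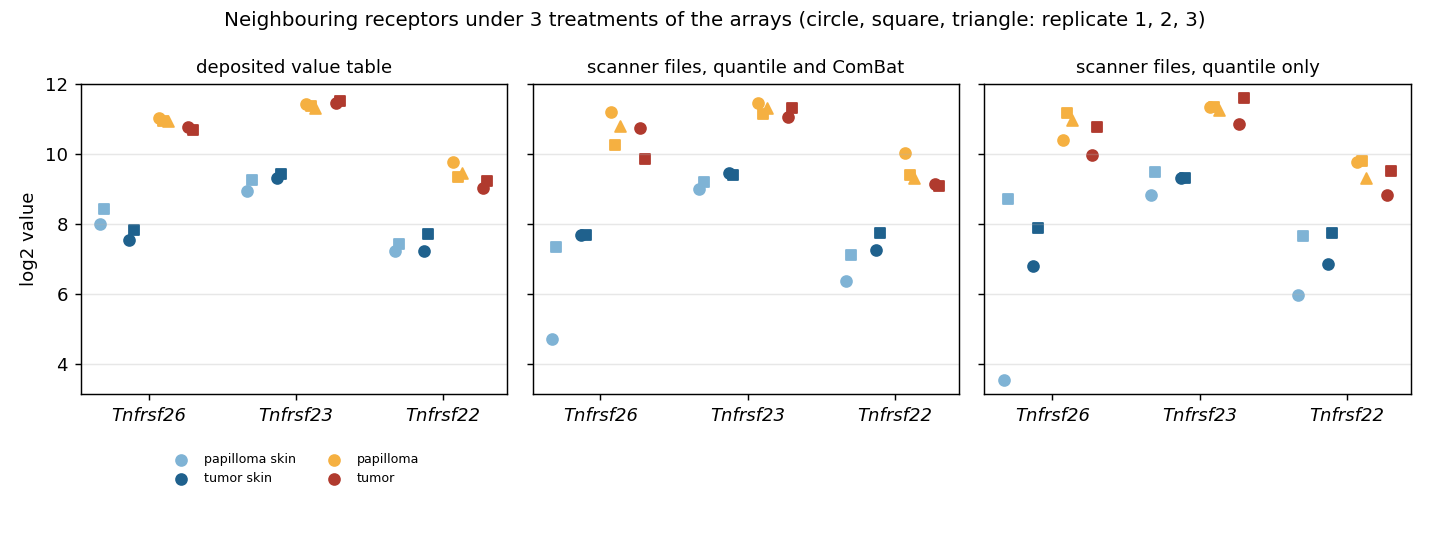
Log2 values (y axis) of Tnfrsf26, Tnfrsf23 and Tnfrsf22 on each array, colored by tissue and shaped by replicate, in the deposited table, in scanner files after quantile normalization and ComBat, and in scanner files after quantile normalization alone. Lesion arrays lie above skin arrays for each gene in all 3 panels, and papilloma skin 1 drops to 3.56 for Tnfrsf26 in the last.

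The 9 arrays were spread over 3 slides, and lesion and skin of 1 stage shared a slide in 3 pairs of arrays. In the deposited values Tnfrsf26 was higher in the lesion by 3.22 (tumor 1 and tumor skin 1), 3.02 (papilloma 1 and papilloma skin 1) and 2.53 (papilloma 2 and papilloma skin 2). The same pairs gave 2.15, 2.48 and 2.09 for Tnfrsf23 and 1.81, 2.54 and 1.93 for Tnfrsf22. Each pair holds a deposited column that matched another array's file better than its own, so that the slide of these values is uncertain. Scanner values without slide correction, with slide and tissue as each file was labelled, gave 3.16, 6.85 and 2.44 for Tnfrsf26. They gave 1.54, 2.50 and 1.87 for Tnfrsf23 and 1.95, 3.80 and 2.16 for Tnfrsf22. When limma was fitted to the deposited values with slide added to the groups, the tumor increase of Tnfrsf22 was 1.73 with an adjusted p of 0.0686 and was no longer called, while the other 5 increases of these receptors remained called. Fitting slide in the scanner values instead left 0 of the 42 called in any comparison, with changes of Tnfrsf26 of 2.52 in tumor (adjusted p of 1.00) and 4.68 in papilloma (adjusted p of 0.283). Under the 22 alternatives its tumor change ranged from 2.31 to 3.31.

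The 3 genes are next to each other on chromosome 7 in the RefSeq order, between Cars and Osbpl5. To see whether the surroundings moved as well, the 10 protein-coding genes on either side were examined, 19 of which had a probe. Of these 19, 2 were called higher in tumor versus tumor skin (Tssc4 and Cttn), against 2.75% of all genes. In papilloma versus papilloma skin 2 were called higher (Cars and Cttn), against 2.43%. In these comparisons 0 were called lower, against 1.61% and 1.17% of all genes. Cars, which encodes cysteinyl-tRNA synthetase and borders Tnfrsf26, had log2 fold changes of 0.82 (adjusted p = 0.00885, limma) and 1.03 (adjusted p = 0.00235, limma) in tumor and papilloma. Osbpl5 on the other side had changes of 0.68 and 0.70 with adjusted p of 0.401 and 0.409. The increases of the 3 receptors were thus larger than those of any of the 19 neighbors measured.

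**Figure D4:**
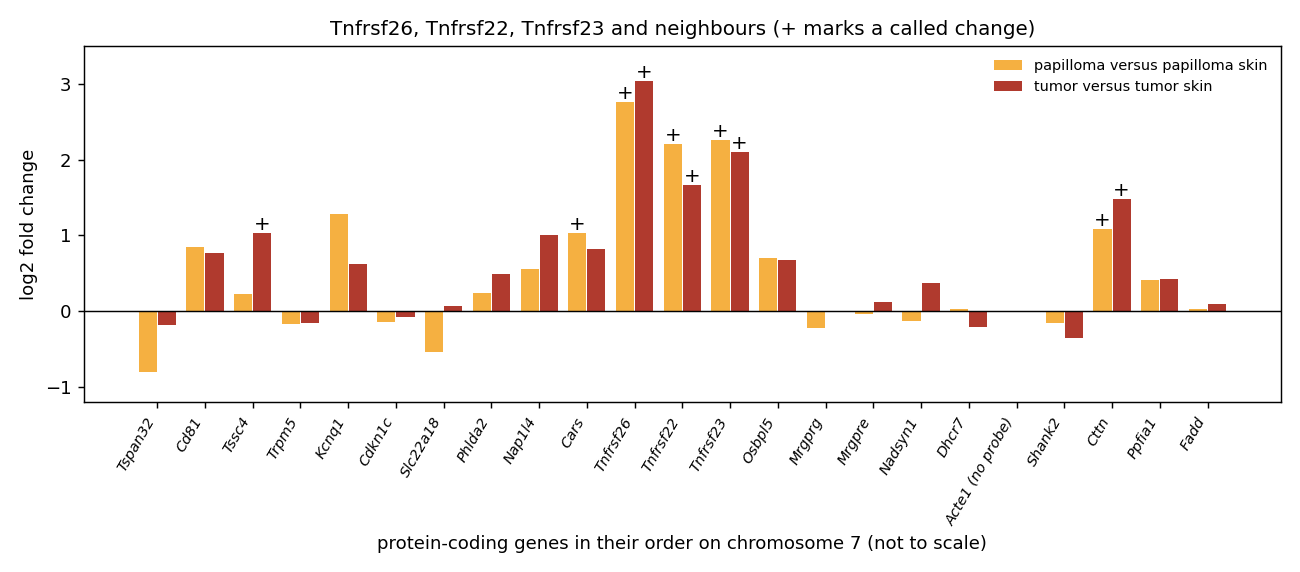
Log2 fold change (y axis) of each lesion against its skin for protein-coding genes in their chromosomal order around the 3 receptors (x axis, not to scale). The receptors rise by 1.66 to 3.04, and the next highest bar is Cttn at 1.48.

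Among receptors without a death domain, Tnfrsf12a, the receptor of TWEAK, was called in tumor versus tumor skin and also between the skin groups. It lay at 9.46 and 9.18 in papilloma skin but at 8.09 and 7.58 in tumor skin, and at 9.95, 10.30 and 10.32 in papilloma and 9.91 and 10.15 in tumor. In these values tumor skin stood below the rest. In scanner values without slide correction the skin groups overlapped, with 7.91 and 9.38 in papilloma skin and 8.10 and 7.50 in tumor skin, and all lesion arrays were above both. Tumor was above tumor skin by 2.19 log2 units (SE 0.221, adjusted p = 0.00184, limma). With slide added to the groups the increase was 2.12 with an adjusted p of 0.0526 and was not called. Papilloma was above its skin by 0.87 (SE 0.201, adjusted p = 0.0385, limma), under the fold minimum. Tumor skin versus papilloma skin gave -1.48 (SE 0.221, adjusted p = 0.0382, limma), where 0.181% of all genes were called lower. That call was lost when any 1 of the 9 arrays was left out, with adjusted p of 0.0686 to 0.196. The lesion effect was larger at the tumor stage by 1.32 (95% interval 0.63 to 2.01, adjusted p = 0.153, limma), a difference that was not called. On the shared slides the lesion exceeded the skin by 1.81 in the tumor pair and by 0.49 and 1.12 in the papilloma pairs. The same pairs gave 3.37, 1.80 and 1.09 in scanner values without slide correction. The ligand Tnfsf12 had changes of -0.48 and -0.10, neither called.

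Tnfrsf9, the costimulatory receptor CD137, lay at 8.17 and 8.15 in papilloma skin and 8.04 and 8.37 in tumor skin. In lesions it was at 9.37, 9.07 and 9.22 in papilloma and at 9.14 and 9.02 in tumor, all above the skin. Papilloma exceeded its skin by 1.06 log2 units (SE 0.150, adjusted p = 0.00560, limma), which was called. The tumor increase of 0.87 (SE 0.165, adjusted p = 0.0169, limma) was under the fold minimum. The papilloma call was lost with the columns papilloma skin 1 and tumor 1 left out (1.06, adjusted p = 0.0638, limma) and, by the fold minimum, without papilloma 1 (0.98). Its 2 probes differed in the size of the change. The one at chr4:150319101-150319160 (mm9) rose by 1.47 and 1.51 in papilloma and tumor, with limma adjusted p of 0.00204 and 0.00340, but was well above background on 7 of 9 arrays, so that these sizes are uncertain. The one at chr4:150319582-150319641 changed by 0.64 and 0.23, with limma adjusted p of 0.0997 and 0.529.

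Of the called genes, Tnf, Tnfrsf9, Tnfrsf12a, Tnfrsf18 and Tnfrsf23 had a RefSeq promoter window of 300 bases (GRCm38.p6, 250 before to 50 after the start). These were searched on both strands for GGG, any 2 bases and TTTCC, an NF-kappaB consensus, and TGANTCA, an AP-1 consensus, motifs whose matches did not overlap in the window shown. A match was found in 1 of the Tnfrsf9 windows and in no window of the other 4 genes. That window, chr4:150927749-150928048 on the plus strand, is shown with the NF-kappaB match and then the AP-1 match in capitals.
Tnfrsf9: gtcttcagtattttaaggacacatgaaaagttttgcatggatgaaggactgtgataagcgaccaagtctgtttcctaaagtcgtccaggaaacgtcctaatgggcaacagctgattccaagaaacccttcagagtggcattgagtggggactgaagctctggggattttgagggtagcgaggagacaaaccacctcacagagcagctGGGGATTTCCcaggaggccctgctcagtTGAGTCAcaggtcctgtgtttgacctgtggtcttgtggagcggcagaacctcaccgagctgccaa
Over all 32851 windows of this length, 1.63% held the first motif and 7.81% the second. Of the 36 windows of members, 3 held the first (Ltb, Tnfrsf25 and Tnfrsf9) and 6 the second, the latter from 5 genes (Fas, Tnfrsf8, Tnfrsf9, Tnfsf13b and Tnfsf14). A match of letters is a description and does not show that a factor binds there.

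Tnfrsf18, known as GITR, was the only member called lower in a lesion than in its skin. It lay at 10.62 and 10.99 in papilloma skin and at 11.44 and 11.67 in tumor skin, against 10.24, 9.91 and 10.24 in papilloma and 10.84 and 10.13 in tumor. Tumor 1 thus lay within the range of papilloma skin. The log2 change was -1.07 in tumor (SE 0.255, adjusted p = 0.0367, limma), which was called, and -0.68 in papilloma (SE 0.233, adjusted p = 0.135, limma), which was not. On the shared slides the lesion differed from the skin by -0.60 in the tumor pair and by -0.38 and -1.08 in the papilloma pairs, whereas scanner values without slide correction gave -3.67, 1.16 and -0.74, which differ in sign. The tumor call was lost on leaving out any of 5 of the 9 arrays in turn (changes of -1.42 to -0.72 and adjusted p of 0.0267 to 0.195 over all 9) and with slide as a term (-0.90, adjusted p = 0.214, limma).

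Other receptors of this kind were not called in either comparison. Tnfrsf1b, the second TNF receptor, lay at 10.61 and 11.76 in papilloma skin, 10.86 and 11.07 in tumor skin, 11.89, 12.16 and 11.50 in papilloma and 11.48 and 10.90 in tumor. Its groups overlapped, and the log2 fold changes of 0.22 (95% interval -0.66 to 1.10) and 0.67 (-0.14 to 1.47) in tumor and papilloma include 0 and reach above 1. Tnfrsf14, the receptor of LIGHT, passed the adjusted p in papilloma versus papilloma skin (0.0332) with a change of -0.55, and had a change of -0.06 in tumor (adjusted p = 0.807, limma). Tnfrsf17, the plasma cell receptor BCMA, had changes of -1.72 and -1.62 in tumor and papilloma (limma, adjusted p = 0.0624 and 0.0722), and its mean log2 value of 5.68 was under the level minimum. It was well above background on 3 arrays, only 1 of which had a spike-in slope of at least 0.9. It was well above background on 0 of 3 papilloma arrays and on 1 of 2 papilloma skin arrays, and on 1 of 2 arrays of tumor and of tumor skin, so that the size of either change is uncertain. Its skin values of 5.95 to 7.17 lay above its lesion values of 4.50 to 5.44. Igj, a plasma cell transcript, was at 13.24 to 15.20 in skin and 5.78 to 7.88 in lesions. The summed level of the 8 measured B and plasma cell markers was 13.35 to 15.25 in skin, most of it Igj, and 9.33 to 10.54 in lesions. Of these markers, 4 had a mean log2 value of at least 6. In tumor 2 were called lower and in papilloma 1, against 1.61% and 1.17% of all genes. The median log2 change of the list was -0.69 in tumor and -0.17 in papilloma, beside -0.01 over all genes. The part of B and plasma cells in the values of Tnfrsf17 was not tested.

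Of the 17 ligands, 1 was called higher in papilloma and 0 in tumor relative to their skin, against 2.43% and 2.75% of all genes called higher. Their median log2 changes were -0.17 and -0.14, beside -0.01 over all genes. Tnf, the founding ligand and a product of activated neutrophils, lay at 12.62 and 13.15 in papilloma skin, 13.35 and 13.08 in tumor skin, 14.05, 14.72 and 13.81 in papilloma and 13.55 and 14.31 in tumor. Each lesion array was above each skin array, the lowest lesion array being tumor 1. Papilloma exceeded its skin by 1.31 log2 units (SE 0.325, adjusted p = 0.0491, limma), or 2.48-fold. In tumor versus tumor skin it was 0.71 (95% interval -0.11 to 1.53, adjusted p = 0.242, limma). The papilloma call was near the threshold, and leaving out any of 7 of the 9 arrays in turn ended it, with adjusted p over all 9 of 0.0467 to 0.226. On the shared slides the lesion exceeded the skin by 0.20 in the tumor pair and by 1.44 and 1.57 in the papilloma pairs. In scanner values without slide correction the same pairs gave 1.64, 2.42 and 0.55, so that the smallest gap was in another pair.

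Tnfsf10, which encodes TRAIL, lay at 7.94 and 7.38 in papilloma skin, 6.00 and 6.97 in tumor skin, 7.12, 6.31 and 6.41 in papilloma and 5.98 and 6.53 in tumor. Papilloma skin was above papilloma, whereas tumor skin and tumor overlapped. The changes were -1.04 (95% interval -1.88 to -0.20, adjusted p = 0.139, limma) in papilloma and -0.23 (-1.15 to 0.69, adjusted p = 0.762, limma) in tumor, neither called. Fasl, the ligand of FAS, lay at 7.002 and 7.093 in papilloma skin, 6.40 and 6.69 in tumor skin, 7.14, 7.22 and 7.06 in papilloma and 7.02 and 6.89 in tumor. Tumor skin was below the other groups, and the changes were 0.09 and 0.41 in papilloma and tumor (limma, adjusted p = 0.764 and 0.120).

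Tnfsf13b, the B cell survival factor BAFF, lay at 8.58 and 9.22 in papilloma skin, 9.40 and 8.88 in tumor skin, 8.01, 8.60 and 8.24 in papilloma and 9.25 and 8.95 in tumor. It had the smallest adjusted p of the 42 in tumor versus papilloma (0.212), with a change of 0.82 that was not called. Tnfsf14, which encodes LIGHT, lay at 12.36 and 12.58 in papilloma skin, 12.59 and 11.44 in tumor skin, 11.70, 12.85 and 12.36 in papilloma and 12.30 and 11.88 in tumor. Its spread within groups reached that between them, and its changes of 0.07 and -0.17 in tumor and papilloma were not called. The other 12 ligands were not called in any comparison, and none of the 17 was called in tumor versus papilloma.

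None of the 6 death domain receptors was called in either comparison of a lesion with its skin. Over all genes 2.75% were called higher and 1.61% lower in tumor, and 2.43% and 1.17% in papilloma. With so few receptors, 0 calls is near those shares. All 6 had a mean log2 value of at least 6. Their median change was 0.25 in tumor and 0.22 in papilloma, beside -0.01 in both over all genes. Tnfrsf1a, the main TNF receptor, lay at 12.92 and 13.44 in papilloma skin, 13.77 and 13.20 in tumor skin, 12.80, 13.29 and 13.17 in papilloma and 13.50 and 12.94 in tumor. Its changes were -0.26 (95% interval -0.93 to 0.41) in tumor and -0.09 (-0.70 to 0.53) in papilloma. Fas lay at 12.02 and 12.70 in papilloma skin, 11.98 and 11.60 in tumor skin, 11.81, 12.14 and 11.90 in papilloma and 12.45 and 11.82 in tumor, with changes of 0.34 (-0.32 to 1.01) and -0.41 (-1.01 to 0.20). Tnfrsf10b, the TRAIL receptor that can signal death, lay at 7.75 and 8.16 in papilloma skin, 7.47 and 8.21 in tumor skin, 8.72, 8.47 and 8.09 in papilloma and 8.26 and 8.31 in tumor. Its changes of 0.45 (-0.21 to 1.11) and 0.47 (-0.14 to 1.07) in tumor and papilloma were not called. The intervals of all 3 receptors include 0 and reach changes of up to 1.11 on the log2 scale. Tnfrsf25, known as DR3, had a change of 1.38 in tumor versus tumor skin with a limma adjusted p of 0.0568.

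**Figure D5:**
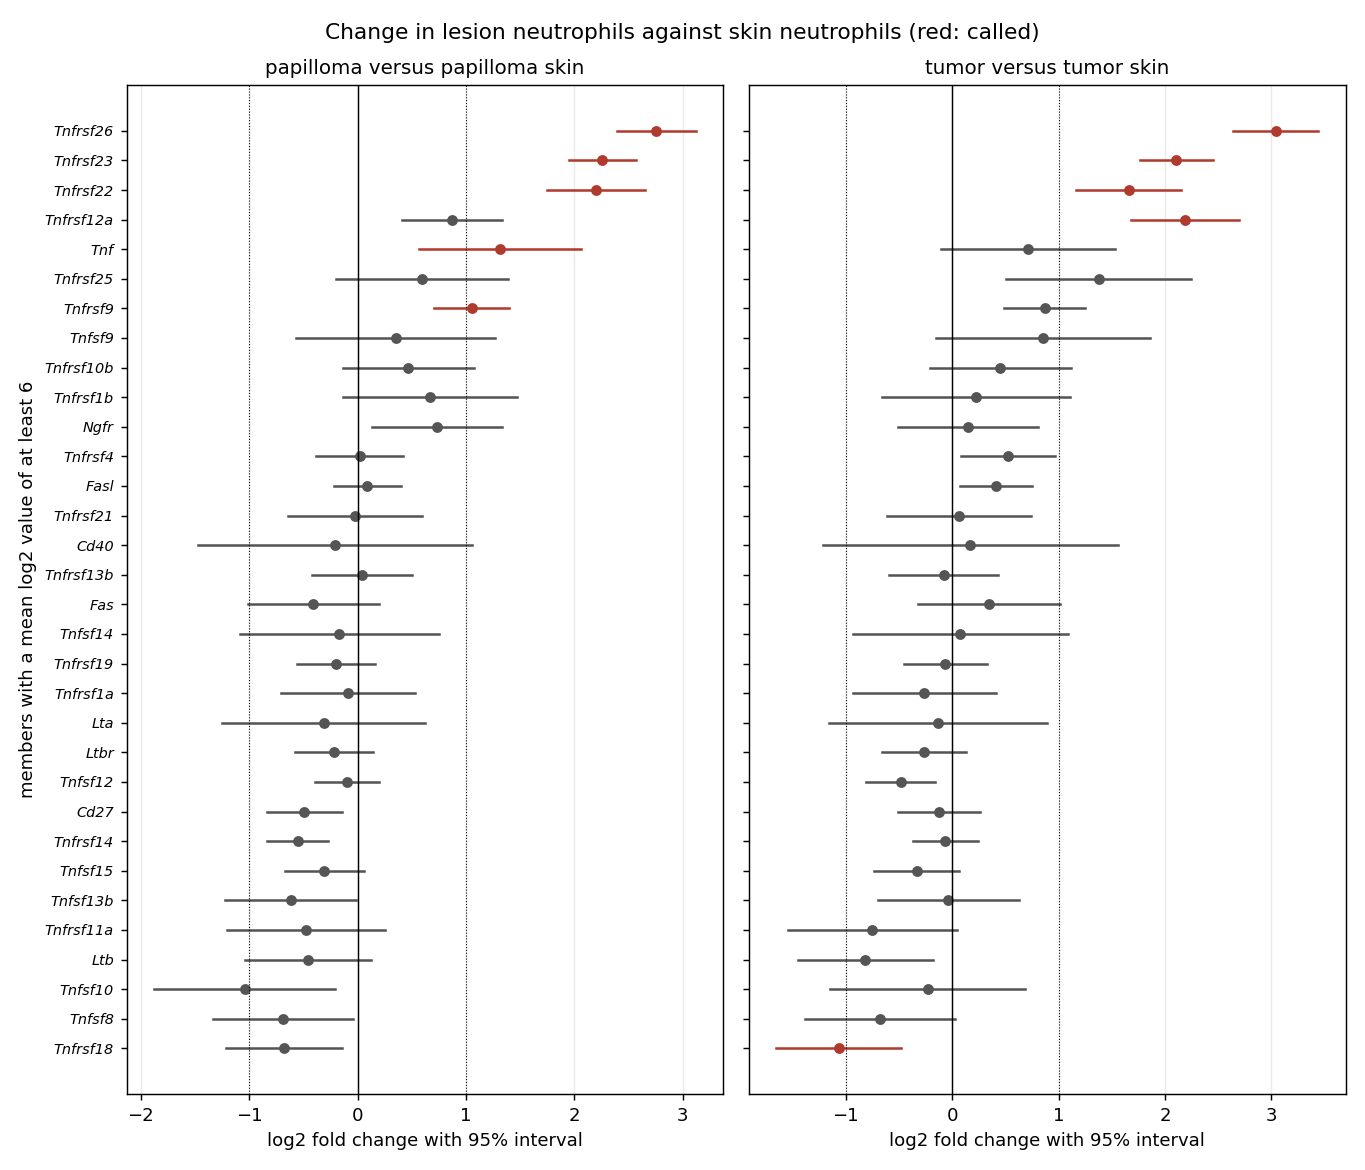
Log2 fold change with its 95% interval (x axis) for the 32 members with a mean log2 value of at least 6 (y axis), in papilloma versus papilloma skin (left) and tumor versus tumor skin (right), with called genes in red. The 3 neighboring receptors lie at 1.66 to 3.04 with intervals above 1, and most other intervals include 0.

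Between the lesions of the stages no member was called. In tumor versus papilloma, 0 of the 42 were called by limma against 0.606% of all genes, and 3 had an unadjusted p under 0.05, where 15.2% of all genes did. The changes of Tnfrsf26, Tnfrsf23 and Tnfrsf22 were -0.25 (95% interval -0.61 to 0.12), 0.12 (-0.19 to 0.43) and -0.40 (-0.85 to 0.05). In the deposited values these intervals do not reach a difference of 1 log2 unit in either direction. They may be too narrow if the deposited table holds a ComBat step, which is not known. A difference of the lesion effect between stages was called by limma for 0 of 42, against 0.0891% of all genes, and 4 had an unadjusted p under 0.05, where 14.1% of all genes did. Over both stages, all lesions versus all skin gave 5 members called higher (Tnf, Tnfrsf12a, Tnfrsf22, Tnfrsf23 and Tnfrsf26), against 2.42% of all genes, and 0 lower, against 1.51%. Tnf had a change of 1.01 (SE 0.241, adjusted p = 0.0256, limma) there, a call that leaving out 1 array in turn kept in 5 of 9 cases (adjusted p of 0.0229 to 0.0904 over all 9). It was lost without papilloma skin 1, tumor skin 2, papilloma 2 or tumor 2. All lesion arrays were above or all below all skin arrays in 8 of the 42, against 12.9% of all genes.

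Downstream of the receptors, lists of 19 adaptors and kinases, 8 death and survival effectors, 8 brakes on TNF signaling (7 with a probe), 4 shedding enzymes and 18 TNF-induced genes were counted. In tumor versus tumor skin, 5 of the 18 TNF-induced genes were called higher and 0 lower, against 2.75% and 1.61% of all genes. In papilloma versus papilloma skin 2 were called higher and 1 lower, against 2.43% and 1.17%. The median changes of this list were 0.83 and 0.21, beside -0.01 in both over all genes. In tumor skin versus papilloma skin its median was -0.81, beside -0.02 over all genes, with 3 called lower, against 0.181%. In tumor versus papilloma it was -0.04, beside -0.01, with 0 called higher and 1 lower, against 0.606% called in either direction. Ier3, an early response gene, rose by 3.12 and 1.99 in tumor and papilloma (limma, adjusted p = 0.00293 and 0.00952), and Il6 rose by 1.44 and 1.57 (limma, adjusted p = 0.0343 and 0.0204). The neutrophil chemoattractant Cxcl2 rose by 1.48 in tumor (adjusted p = 0.0198, limma), and the activation marker Cd83 fell by 2.06 in papilloma (adjusted p = 0.0318, limma).

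Of the adaptors and kinases, Traf4 rose by 1.07 and Map3k5, a stress kinase, fell by 1.10 in tumor (limma, adjusted p = 0.00550 and 0.0430), and 0 of the 19 were called in papilloma. Of the death and survival effectors, Casp8, the initiator caspase of death receptors, rose by 1.44 and Bid, its pro-apoptotic substrate, fell by 1.28 in tumor (limma, adjusted p = 0.00486 and 0.0130). Cflar, which encodes the caspase-8 inhibitor cFLIP, rose by 1.03 in papilloma (adjusted p = 0.00657, limma). Of the 7 brakes measured, the deubiquitinase Cyld fell by 1.28 and 1.54 in tumor and papilloma (limma, adjusted p = 0.0258 and 0.00940). None of the 4 shedding enzymes was called. Beside these counts, 2.75% of all genes were called higher and 1.61% lower in tumor, and 2.43% and 1.17% in papilloma.

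Transcripts of other cell types also differed between lesion and skin preparations, and fewer cells of a type and less RNA per cell cannot be told apart in such bulk samples. Beside the counts that follow, 2.75% of all genes were called higher and 1.61% lower in tumor, and 2.43% and 1.17% in papilloma. Each sum is led by the brightest genes of its list. Of 12 keratinocyte markers, 4 were called higher in tumor and 3 in papilloma. Their summed level on the log2 scale was 12.49 to 13.57 in the 4 skin arrays, 13.68 to 14.88 in papilloma and 14.15 to 15.84 in tumor. Of 8 endothelial markers, 2 were called higher in tumor and 5 in papilloma, with sums of 10.41 to 11.13 in skin, 11.95 to 12.51 in papilloma and 10.74 to 11.28 in tumor. Of 9 fibroblast markers, 1 was called higher and 1 lower in tumor and 2 higher in papilloma, with sums of 13.13 to 14.83 in skin, 15.24 to 15.72 in papilloma and 12.62 to 13.98 in tumor. Of 8 eosinophil markers, 5 were called lower at each stage and 1, Siglec5, higher in tumor, with sums of 13.57 to 13.95 in papilloma skin, 12.77 to 12.88 in tumor skin, 11.03 to 11.39 in papilloma and 11.63 to 11.84 in tumor. The eosinophil peroxidase gene Epx, a defining marker, was well above background on 3 arrays, at most 1 per group. Of 9 measured T cell markers, 1 was called lower in tumor and 0 in papilloma, with sums of 12.64 to 12.88 in skin and 12.08 to 12.45 in lesions. The median change of the list was -0.11 in tumor and -0.61 in papilloma. Of 9 measured monocyte and macrophage markers, 1, Emr1, was called lower at each stage, with sums of 12.67 to 13.77 in skin and 12.21 to 12.91 in lesions. Of 9 dendritic and Langerhans cell markers, 2 were called lower in tumor and 1 higher in papilloma, with sums of 14.64 to 15.13 in papilloma skin, 14.35 to 14.89 in tumor skin, 15.18 to 15.54 in papilloma and 14.02 to 14.23 in tumor. Among 12 neutrophil markers, 6 were called lower in tumor and 4 in papilloma, led by the granule genes Camp (-3.72 and -4.13) and Ngp (-3.39 and -3.27). Ly6g, which encodes an antigen of Gr-1bright cells, changed by -2.09 in tumor (adjusted p = 0.00849, limma) and by -1.08 in papilloma (adjusted p = 0.0720, limma), with means of 12.44 in tumor skin and 10.63 in papilloma skin. The part of these cell types and of granule gene content in the changes of Tnfrsf22, Tnfrsf23, Tnfrsf26, Tnfrsf12a, Tnfrsf9, Tnfrsf18 and Tnf was not tested.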

How the data were processed

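RNA of 9 pools of sorted neutrophils was read on 1-color Agilent mouse arrays on 3 slides. The authors deposited a table of log2 values for 55681 probes and the scanner files, whose intensity values (processed signals) are background-corrected and not normalized between arrays. The study's methods name quantile normalization in limma and ComBat for chips, but which steps the table holds is not stated. Here probes were combined per gene by their median, and limma 3.58.1 in R 4.3.3 was fitted to the table with 1 mean per group and 9 arrays, with Benjamini-Hochberg adjustment over 34797 genes. The arrays are replicates by their labels, so that p-values measure the spread between pools, and their small number limits precision. The scanner values were normalized separately as alternatives. The fit of groups alone, the same fit after ComBat and the fit with slide as a term were tested on simulated data. This was done for tumor versus tumor skin only, and the other alternatives were not simulated. In the simulated data ComBat with groups kept in the model made limma call too many unchanged genes. Whether the deposited table holds such a step is not known, so that its adjusted p-values may be too small. This was not tested. Genes named beside the members were taken from the called members, 8 further listed members and called genes of the lists. Ltb, Tnfrsf11b, Tnfrsf14, Tnfrsf17, Tnfrsf25 and Tnfsf12 were named after their values were seen. The members and lists were chosen with earlier results of these data known. Sequences came from the array annotation (mm9) and RefSeq (GRCm38.p6).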

Additional observations from a re-analysis of the deposited data

How the results depend on the processing

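No direction of a called member reversed. In tumor versus tumor skin the count of 5 became 3 with scanner values and ComBat and 2 with slide as a term in the deposited values, and leaving out 1 array in turn gave 4 to 6. In papilloma versus papilloma skin the count of 5 became 8 with scanner values and ComBat and 3 without the columns papilloma skin 1 and tumor 1, and leaving out 1 array gave 3 to 5, with 3 without papilloma 1. Whether replicate numbers pair the arrays was not settled. Deviations of same-numbered arrays correlated at 0.14 to 0.43 between a lesion and its own skin but at -0.93 to -0.07 in the other pairs. These values cannot decide it. In a group of 2 arrays the deviations mirror each other, so that such groups give the same correlation for either number. All arrays numbered 1 also lay on slide 1, so that number and slide cannot be told apart there. With the replicate number as a block the counts were 4 in tumor, without Tnfrsf18, and 3 in papilloma, without Tnf and Tnfrsf9. In tumor skin versus papilloma skin the count of 1 became 0 in every scanner setting, with slide as a term, with the block, without the 2 columns, with array weights, with only the 2 groups and on leaving out any array (0 to 0). In all lesions versus all skin the count of 5 became 8 with no fold minimum, and leaving out 1 array gave 4 to 7. Counts in tumor versus papilloma and for the difference of the lesion effects were 0 to 0 on leaving out 1 array. Scanner values with slide as a term, with no slide correction, with 75th percentile scaling, and on the 6 arrays whose spike-in slope was at least 0.9 (chosen after seeing the data) gave 0 in every comparison. These 6 arrays leave 1 array in each group but papilloma, whose spread stands for all groups, so that the last count says little about stability, and it is among the losses below. Over all genes the calls went from 1516 to 217 with scanner values and ComBat and to 203 with slide as a term in tumor, and from 1251 to 2768 with scanner values and ComBat, 438 with the block and 818 without the 2 columns in papilloma. The 75th percentile scaling moved the median of all genes to -0.12 in tumor and -0.41 in papilloma. Of 22 alternatives, the papilloma call of Tnf was lost in 15, the tumor call of Tnfrsf18 in 13 and the skin call of Tnfrsf12a in 20. The papilloma call of Tnfrsf9 was lost in 7, the tumor call of Tnfrsf12a in 5 and the call of Tnf over both stages in 11 of 21. The tumor calls of Tnfrsf22, Tnfrsf23 and Tnfrsf26 were lost in 7, 4 and 5, and each of their papilloma calls in 4. The cause of these shifts was not tested.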
